A study of Mus musculus with 8 samples.

Results

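The genes described here encode the ligands, antagonists, receptors, Smad proteins and Id targets of TGF-beta and bone morphogenetic protein (BMP) signalling. They were chosen by symbol: every listed gene whose symbol starts with Bmp, Tgfb, Smad, Acvr or Inhb, together with Id1, Id2, Id3, Id4, Fst, Nog and Ltbp1. This gave 45 of the 15995 genes listed for newborn mouse epidermis, of which 5 match by their letters but are not ligands, antagonists, receptors or Smads (Bmp1, Bmp2k, Tgfb1i1, Tgfbi and Tgfbrap1) and are treated apart. TGF-beta and activin ligands act through Smad2 and Smad3, and BMPs through Smad1, Smad5 and Smad9. Both kinds of receptor-activated Smad then join Smad4 and enter the nucleus, where the Id genes are among the best known BMP targets. In skin, TGF-beta is known for restraining keratinocyte division, and BMPs for their part in epidermal differentiation and in the hair follicle.

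Total RNA was sequenced from the epidermis of newborn C57BL/6J mice in 4 knockout libraries, labelled ZFP750-/-, and 4 wild-type libraries. No other allele or agent is named, and the labels do not say which piece of Zfp750 was deleted, nor whether the deletion was limited to the skin. Zfp750 encodes a zinc finger protein of differentiating keratinocytes, and the study asked about its role in skin lipid metabolism and the barrier. The labels do not say whether the libraries came from separate animals, so the p-values below measure only the spread between these libraries. Levels are FPKM, which divide by transcript length, so that levels of different genes can be set side by side. Changes are on the log2(FPKM + 1) scale and are knockout minus wild type. Each is given with its standard error (SE). A gene is said to have risen or fallen where limma's adjusted p over all 11395 tested genes was below 0.05. A gene was tested where it reached 1 FPKM in at least 4 of the 8 libraries.

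Zfp750 was all but absent from the knockouts, as the labels say, with levels of 1.53 to 2.68 FPKM against 81.6 to 119 FPKM in the wild types. The sample titles end in the number 11, 14 or 44, whose meaning is not given: knockouts 3 and 4 and wild types 1 and 2 carry 44, knockout 2 and wild type 3 carry 14, and knockout 1 and wild type 4 carry 11. Knockouts 1 and 2 are both titled KO1, and they correlated at 0.9823 over the tested genes on the log2(FPKM + 1) scale. No listed gene had the same value above 0 in both. Knockout 4 stood apart from knockout 1, with a correlation of 0.9147 over the same genes and on the same scale. Xist was above 80 FPKM in knockouts 1 to 3 and wild type 3 and below 2 FPKM in the other 4 libraries. Summed FPKM ranged from 483416 to 577300 per library, and the absolute read depth is unknown. Basal keratinocyte markers, checked against the epidermal label, summed to 1163 to 6176 FPKM, while 3 of 6 endothelial markers were listed and all stayed below 1 FPKM. The differentiation markers Krt1 and Krt10 are listed above 0 in knockouts 1 and 2 only, and were not tested. Krt1 was 12094 and 13833 FPKM there and Krt10 11387 and 13519 FPKM, and both are listed at 0 in every other library, all wild types included. The cause of this difference was not tested.

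Id3 was the 1 gene of the 45 that passed when the genotypes were compared without a block. It encodes an inhibitor of DNA binding, a protein that pairs with basic helix-loop-helix transcription factors and keeps them off DNA, and it was 4.55 times as high in the knockouts. With the title number, which libraries of both genotypes share, as a block in the fit, 7 of the 34 tested genes passed (20.6%), against 19.8% of all tested genes. These were Id3, Tgfb1, Smad3, Smad4, Smad7 and Inhbb, higher, and Bmp2k, lower. Of the 45 genes, 34 were tested, each with 1 FPKM or more in libraries of both genotypes, and 33 of these did not pass without the block. An unadjusted p below 0.05 was found for 5 (Id3, Tgfb1, Bmp2k, Smad4 and Acvr2a). Without the block the share called was 2.94%, against 15.7% of all tested genes, and the share called higher in all genes was 6.72%. Differences lay above 0 for 25 and below 0 for 9 of the tested members, with a median of 0.11 against 0.0072 over all tested genes. Their sizes had a median of 0.249 on the log2 scale and those of all tested genes 0.245. The typical change was therefore about as large as elsewhere, but the median SD within a genotype was 0.443 on that scale for the members and 0.247 for all tested genes. Groups did not overlap for 1 member, Id3, and for 21.3% of all tested genes.

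**Figure D1:**
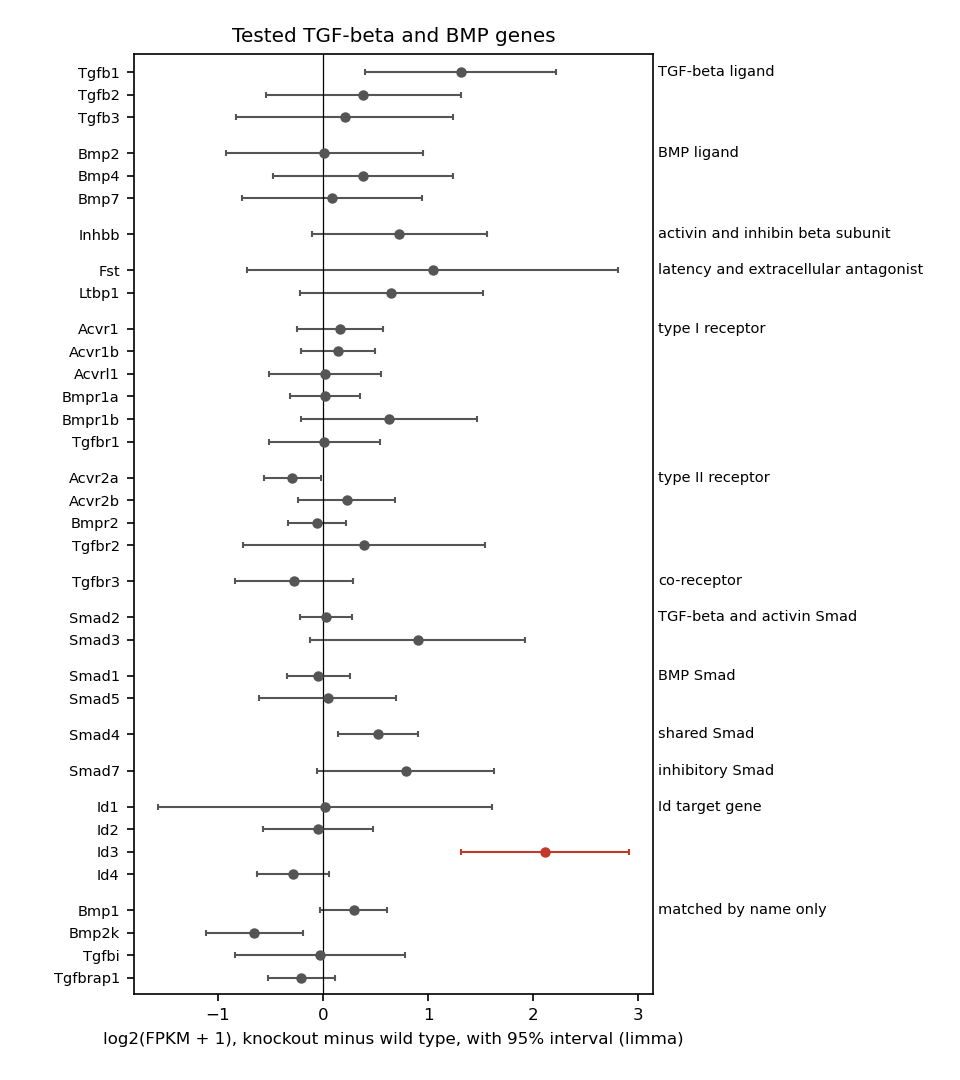
Log2 change with its 95% interval for the 34 tested genes, knockout minus wild type, from limma on log2(FPKM + 1). Red marks the gene that passed the test, Id3 at 2.11, and the intervals of Tgfb1, Smad4, Acvr2a and Bmp2k are the others that do not cross 0.

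The Id genes are described first because Id3 is among them. Id3 lies at chr4:136143497-136145755 on the plus strand (GENCODE, GRCm38), has 3 annotated transcripts with up to 3 exons, and shares no exon sequence with another gene on either strand. The 250 bases before the RefSeq start of Id3, Id2 and Id4 are printed below from GRCm38.p6, to set Id3 beside members of its family that were not called. No window of Id1 was at hand. Each is given 5′ to 3′ on the gene's own strand, at chr4:136143572-136143821 for Id3 (plus strand), chr12:25096093-25096342 for Id2 (minus strand) and chr13:48260866-48261115 for Id4 (plus strand). Capitals mark GTCT on either strand, the short element that Smad3 and Smad4 can bind, and GGCGCC, a GC-rich element found in BMP-responsive enhancers. The motifs do not overlap each other in these windows. By the GENCODE coordinates the Id3 window lies within the annotated gene, as does that of Id2 (gene at chr12:25093799-25097140). The Id4 window ends before its gene, which starts at chr13:48261228, so the 3 windows are not placed alike.
Id3: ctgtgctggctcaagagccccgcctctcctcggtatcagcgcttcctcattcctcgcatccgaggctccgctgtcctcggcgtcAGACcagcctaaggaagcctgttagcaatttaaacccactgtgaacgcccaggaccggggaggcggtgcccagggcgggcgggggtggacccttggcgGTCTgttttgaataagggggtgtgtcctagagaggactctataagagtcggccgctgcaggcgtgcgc
Id2: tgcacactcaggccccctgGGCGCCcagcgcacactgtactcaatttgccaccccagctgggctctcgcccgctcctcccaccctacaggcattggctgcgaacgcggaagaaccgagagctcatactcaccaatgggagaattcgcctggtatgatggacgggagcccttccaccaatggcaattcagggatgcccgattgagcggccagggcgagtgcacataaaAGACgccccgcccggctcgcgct
Id4: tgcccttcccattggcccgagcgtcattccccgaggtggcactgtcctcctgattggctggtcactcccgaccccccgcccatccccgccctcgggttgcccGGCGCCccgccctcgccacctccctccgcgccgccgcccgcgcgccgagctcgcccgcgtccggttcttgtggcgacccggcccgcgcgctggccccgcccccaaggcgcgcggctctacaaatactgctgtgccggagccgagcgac
The Id3 window holds 2 copies of GTCT and 0 of GGCGCC, that of Id2 holds 1 of each, and that of Id4 holds 0 and 1. GTCT is found on either strand in 82.9% of 32851 windows of this length and GGCGCC in 9.59%, so the first is a common word. The 39 windows of the 31 members that could be matched held GTCT in 33 cases and GGCGCC in 10. The joined form, GGCGCC followed 5 bases later by GTCT, is known from BMP-response elements. It was present in 0 of the 39 and in 0.07% of all windows. These are matches of letters and were not tested as binding sites.

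Id3 measured 97.1, 91.5, 79.3 and 35.3 FPKM in knockouts 1 to 4, and 11.2, 11.9, 15.9 and 27.6 FPKM in wild types 1 to 4. Every knockout lay above every wild type, with the lowest knockout, number 4, nearest to the highest wild type, number 4. The means were 75.8 ± 28.0 FPKM in the knockouts and 16.6 ± 7.61 FPKM in the wild types (SD, n = 4 each). The log2 change was 2.11 (SE 0.36, 95% interval 1.31 to 2.91), with an adjusted p of 0.00388 by limma. It was 2.11 among the libraries of title number 44 alone and 2.12 among those of 11 and 14, with adjusted p of 0.0235 and 0.00521. Over 23 other settings the change ran from 1.70 to 2.53 and the adjusted p from 9.52e-05 to 0.0464, all below 0.05. In whole epidermis, more cells of a type that carries Id3 and more Id3 RNA per cell cannot be told apart.

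Some basal keratinocyte markers were higher in the knockouts, as Id3 was. The summed level of the 7 was 6176, 4412, 5383 and 2328 FPKM in the knockouts and 1163, 1777, 2759 and 3581 FPKM in the wild types. Of the 7, 4 were called higher (Krt14, Itga6, Itgb4 and Col17a1). Krt5, Trp63 and Krt15 were not called, with changes of 0.79, 0.43 and -0.09 (adjusted p 0.3025, 0.3171 and 0.8865, limma). The sum overlapped between genotypes and was lowest in knockout 4 and in wild types 1 and 2. Of the single markers, Itgb4 and Col17a1 did not overlap, as Id3 did not. Itgb4 was 65.7 to 85.7 FPKM in the knockouts and 9.18 to 28.0 FPKM in the wild types (log2 change 2.09, SE 0.33), a change of about the size of that of Id3, and Col17a1 was 190.0 to 253 and 41.8 to 134 FPKM. Without these 3 libraries the Id3 change was 2.03 (adjusted p 0.00299, limma). Hair follicle markers, none of 7 called, summed to 309.6 to 865 FPKM in the knockouts and 159 to 436 FPKM in the wild types. Most of that sum was Krt17, at 293 to 814 and 137 to 386 FPKM. Krt17, Lhx2, Sox9, Shh and Msx2 had higher means in the knockouts, and Krt25, Krt27 and Krt71 lower means. Krt27, which was not tested, did not overlap, at 0.0898 to 0.520 FPKM in the knockouts and 0.838 to 6.62 FPKM in the wild types. Fibroblast sums overlapped between the genotypes, at 23.2 to 192 FPKM in the knockouts and 34.2 to 95.7 FPKM in the wild types. Melanocyte sums overlapped at 17.0 to 92.9 and 13.8 to 84.0 FPKM. Langerhans and myeloid markers went the opposite way, at 5.97 to 10.5 FPKM in the knockouts and 17.6 to 39.8 FPKM in the wild types, with 4 of 6 called lower. T cell markers were also lower, at 0.628 to 1.56 against 3.13 to 6.64 FPKM, with the 1 tested of them, Cd3g, called. Of the 4 tested suprabasal and cornified markers, Ivl alone was called. It was higher without overlap, at 403 to 722 FPKM in the knockouts and 152 to 216 FPKM in the wild types (log2 change 1.46, SE 0.19, adjusted p 0.000844, limma). Krtdap, Sbsn and Lor, the others tested, had changes of 0.20, -0.18 and -0.35 (adjusted p 0.606, 0.564 and 0.255, limma). With log2 Xist as a covariate the Id3 change was 1.76 (adjusted p 0.0253, limma). The part of the cell types named here in the Id3 change was not tested.

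Id1, the member of the family most often used as a readout of BMP signalling, did not follow Id3. It stood at 68.8, 94.6, 36.6 and 5.20 FPKM in the knockouts and at 38.7, 31.9, 31.0 and 34.2 FPKM in the wild types. The wild types lay close together and the knockouts spread on both sides of them, with 2 far above, 1 near and knockout 4 far below. The log2 change was 0.02 with a 95% interval of -1.57 to 1.61 (adjusted p 0.989, limma), so a sizeable change in either direction was not resolved. By title number it was -1.24 in the libraries of 44 (adjusted p 0.362) and 1.28 in those of 11 and 14 (adjusted p 0.0111), which each hold 2 libraries a genotype. The difference between these, 2.53 (SE 0.96), did not pass (adjusted p 0.273, limma).

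Id2 and Id4 did not change. Id4, well expressed here, was 36.9, 35.5, 27.6 and 25.0 FPKM in the knockouts and 36.1, 33.7, 45.0 and 37.5 FPKM in the wild types. The 2 lowest values were knockouts, yet the groups overlapped, and the change was -0.29 (SE 0.15, adjusted p 0.260, limma). Exons of Id4 overlap those of A330033J07Rik and Gm49291 on the opposite strand, so its level is uncertain if strand was not used. Id2 was lowest of the 4 genes, at 2.28 to 5.25 FPKM in the knockouts and 3.08 to 5.88 FPKM in the wild types. As a share of the summed FPKM of the 4 Id genes, Id3 made up 46.7%, 40.5%, 53.6% and 52.1% in the knockouts and 12.5%, 14.7%, 16.5% and 26.3% in the wild types. Id3 exceeded Id1 in knockouts 1, 3 and 4, with ratios of 1.41, 2.17 and 6.80, and in knockout 2 the ratio was 0.967. In the wild types it lay between 0.290 and 0.809, so the ratio did not overlap even though Id1 alone was scattered. These ratios describe the libraries and carry no test.

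**Figure D2:**
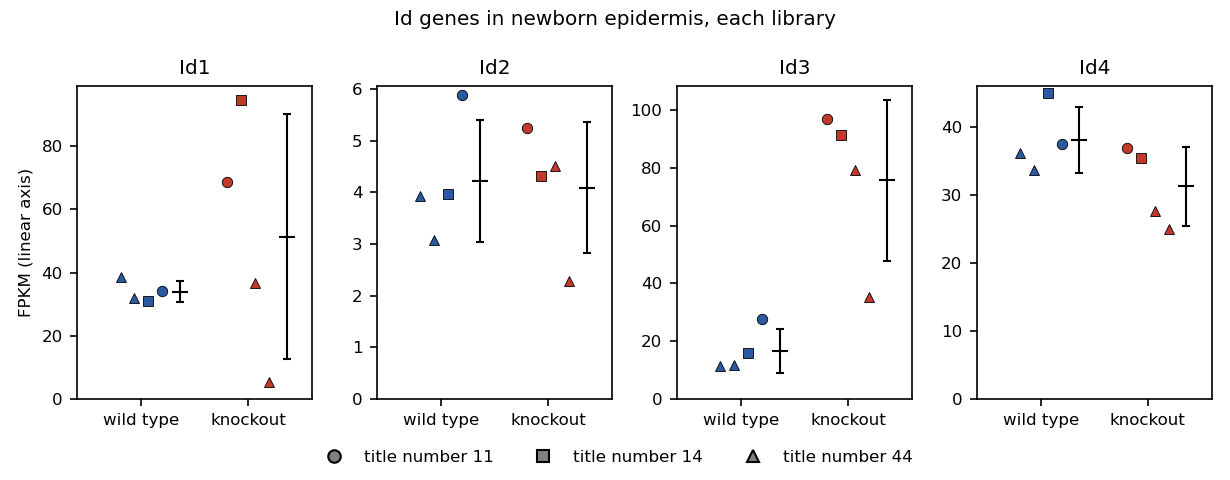
FPKM of Id1, Id2, Id3 and Id4 in each library on linear axes from 0, with points shaped by title number and bars giving the mean ± SD of each genotype. The 4 knockouts lie above the 4 wild types for Id3 at 35.3 to 97.1 against 11.2 to 27.6 FPKM, while Id1 in the knockouts runs from 5.20 to 94.6 FPKM.

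Among the 7 ligand genes tested, none passed without the block, and Tgfb1 and Inhbb passed with it. Tgfb1 encodes the best studied TGF-beta and was the ligand with the smallest p. It measured 14.03, 13.8, 5.74 and 3.81 FPKM in the knockouts and 1.55, 1.90, 4.19 and 3.99 FPKM in the wild types. Knockouts 1 and 2 were far above all wild types, and knockout 4 lay below wild types 3 and 4. The means were 9.34 ± 5.33 and 2.91 ± 1.38 FPKM (SD, n = 4 each), a change of 1.31 (SE 0.41) with an adjusted p of 0.0578 by limma, just short of the threshold. Without knockout 4 it was 1.62 with an adjusted p of 0.0124, and within the title numbers it was 1.07 (adjusted p 0.0507) for 44 and 1.55 (adjusted p 0.00243) for 11 and 14.

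Tgfb2 and Tgfb3, the other TGF-beta genes, were 0.763 to 4.15 and 1.25 to 5.32 FPKM in the knockouts and 0.735 to 3.91 and 1.47 to 6.96 FPKM in the wild types. For Tgfb3, knockouts 1 to 3 held 5.32, 5.27 and 5.30 FPKM and knockout 4 held 1.25 FPKM. The wild types showed the same division, with 1.47 and 1.71 FPKM in numbers 1 and 2 against 4.98 and 6.96 FPKM in numbers 3 and 4.

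Bmp7 was the BMP ligand with the highest level. It stood at 49.2, 42.2, 39.6 and 14.4 FPKM in the knockouts and 20.6, 27.1, 33.8 and 49.8 FPKM in the wild types, nearly the same range in both genotypes, with a change of 0.08 (95% interval -0.77 to 0.94). Bmp2 ranged from 6.26 to 31.4 FPKM in the knockouts and 11.1 to 22.6 FPKM in the wild types, and Bmp4, with the smallest p of this role, from 0.449 to 3.27 and 0.383 to 2.31 FPKM (change 0.38, adjusted p 0.566, limma). Bmp3, Bmp6, Bmp8a and Bmp8b were below the minimum for testing, with a highest value of 2.17 FPKM, in Bmp3 in knockout 2. Inhbb, which encodes a subunit of activin B, gave 4.40, 3.70, 2.29 and 1.16 FPKM in the knockouts against 0.595, 0.486, 2.89 and 1.62 FPKM in the wild types (change 0.72, SE 0.37, adjusted p 0.240, limma). Its groups overlapped through knockouts 3 and 4 and wild types 3 and 4. Inhba did not pass 1 FPKM in any library.

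Outside the cell, Fst encodes follistatin, which binds and blocks activins, and Ltbp1 encodes a protein that stores latent TGF-beta in the matrix. Fst varied more between libraries of 1 genotype than any other tested member (SD 1.39 on the log2 scale), at 97.1, 39.6, 17.0 and 4.05 FPKM in the knockouts and 5.89, 8.18, 13.2 and 21.2 FPKM in the wild types. Knockout 1 alone was more than 4 times as high as any wild type, and knockout 4 was lower than all of them. The change was 1.04 with an SE of 0.79 (adjusted p 0.434, limma). Ltbp1 was 4.14, 5.98, 3.66 and 1.14 FPKM in the knockouts against 0.814, 1.15, 2.79 and 3.01 FPKM in the wild types (change 0.65, SE 0.39, adjusted p 0.320, limma), so that 3 knockouts lay above every wild type and knockout 4 did not. The BMP antagonist genes Nog and Bmper reached at most 0.698 and 0.105 FPKM.

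None of the 11 tested receptor genes passed, with or without the block, and several had small changes. Bmpr1a, the BMP type I receptor with the highest level, was 41.8, 41.4, 42.2 and 29.6 FPKM in the knockouts and 34.4, 35.4, 36.9 and 45.5 FPKM in the wild types. Its change was 0.02 with a 95% interval of -0.31 to 0.35. The type II receptor gene Bmpr2 was likewise 28.4 to 36.2 FPKM in the knockouts and 30.1 to 38.5 FPKM in the wild types, with a change of -0.06 (95% interval -0.33 to 0.22).

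The type I receptor with the smallest p was Bmpr1b, at 10.5, 6.09, 7.02 and 2.44 FPKM in the knockouts and 2.64, 2.15, 3.83 and 6.12 FPKM in the wild types (change 0.63, SE 0.37, adjusted p 0.317, limma). Knockout 4 was again the low value. Acvr1b, the activin type I receptor, was the exception to that order, with 28.5, 33.3, 43.5 and 46.2 FPKM in the knockouts, highest in number 4, and 32.6 to 35.5 FPKM in the wild types. The other type I receptors, Tgfbr1, Acvr1 and Acvrl1, had changes of 0.01, 0.16 and 0.02.

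Acvr2a, an activin type II receptor, had the smallest p of its role. It was 18.4, 19.5, 22.6 and 24.6 FPKM in the knockouts and 26.7, 24.2, 27.0 and 26.6 FPKM in the wild types, lower in the knockouts but for the overlap of knockout 4 with wild type 2. The change was -0.29 (SE 0.12, adjusted p 0.139, limma). Its exons overlap those of Orc4 on the opposite strand, and whether strand was used in quantification is not known. Tgfbr2, the TGF-beta type II receptor, was widely scattered, with 32.0, 23.7, 10.02 and 4.40 FPKM in the knockouts and 10.05, 6.27, 12.8 and 13.8 FPKM in the wild types. Knockouts 1 and 2 lay above, knockout 3 within and knockout 4 below the wild types (change 0.39, adjusted p 0.672, limma). It was 0.999 in title numbers 11 and 14 (adjusted p 0.0195) and -0.22 in 44 (adjusted p 0.760), and the difference of 1.22 did not pass (adjusted p 0.291). The coreceptor gene Tgfbr3 had a change of -0.27 (SE 0.25).

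The Smad genes differed in how much they varied between libraries, and of them Smad3, Smad4 and Smad7 passed with the title number as a block but not without it. Smad2, a TGF-beta Smad, had the smallest spread of all tested members (SD 0.0906 on the log2 scale), with 13.0, 13.1, 13.5 and 11.7 FPKM in the knockouts and 12.4, 11.4, 13.6 and 12.9 FPKM in the wild types (change 0.03, 95% interval -0.22 to 0.28). Its partner Smad3 was 23.1, 20.7, 9.88 and 4.61 FPKM in the knockouts and 4.42, 4.00, 8.49 and 9.24 FPKM in the wild types. Knockouts 1 to 3 exceeded every wild type, and knockout 4 fell among them. The change was 0.90 with an SE of 0.45 (adjusted p 0.235, limma).

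Smad1, a BMP Smad, was 15.1 to 21.8 FPKM in the knockouts and 17.7 to 20.1 FPKM in the wild types. Smad5 ran from 9.31 to 23.3 FPKM and from 12.6 to 23.2 FPKM, while Smad9 stayed at or below 0.103 FPKM. The summed BMP Smads over the summed TGF-beta Smads gave 1.07, 1.11, 1.72 and 1.78 in the knockouts and 1.91, 2.13, 1.68 and 1.87 in the wild types. Knockouts 1 and 2, in which Smad3 was high, were the low values.

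Smad4, which both branches share, was 32.4, 34.2, 31.2 and 22.0 FPKM in the knockouts and 19.7, 16.2, 21.6 and 24.4 FPKM in the wild types. Only knockout 4 and wild type 4 overlapped. The means were 30.0 ± 5.43 and 20.5 ± 3.45 FPKM (SD, n = 4 each), a change of 0.52 (SE 0.17) with an adjusted p of 0.0690 by limma. Smad7, an inhibitory Smad that TGF-beta itself induces, was 8.003, 6.26, 3.65 and 1.57 FPKM in the knockouts and 1.63, 1.25, 3.06 and 2.66 FPKM in the wild types (change 0.79, SE 0.37, adjusted p 0.207, limma). Again 3 knockouts lay above every wild type and knockout 4 did not. Smad6, the inhibitor of the BMP branch, was at or below 1.48 FPKM and was not tested.

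The 5 genes that match by their letters but are not ligands, antagonists, receptors or Smads included Bmp2k, a kinase named for its induction by BMP2. Bmp2k was the highest of them and had the smallest p. It stood at 16.6, 19.0, 26.4 and 31.3 FPKM in the knockouts and 46.1, 35.2, 33.7 and 31.1 FPKM in the wild types, overlapping through knockout 4 and wild type 4. The change was -0.65 (SE 0.21) with an adjusted p of 0.0616 by limma. Its exons overlap those of Paqr3 on the opposite strand, which fell from 14.7 ± 2.40 to 3.46 ± 0.998 FPKM (change -1.83, SE 0.19, adjusted p 0.000216, limma). How reads from the overlap were assigned is not known, so the Bmp2k value is uncertain. Bmp1, a protease that processes procollagen, had a change of 0.29 (adjusted p 0.214). Tgfbi, also in the list of genes commonly induced by TGF-beta, and Tgfbrap1 had changes of -0.03 and -0.21. Tgfb1i1 was below 1 FPKM in every library.

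**Figure D3:**
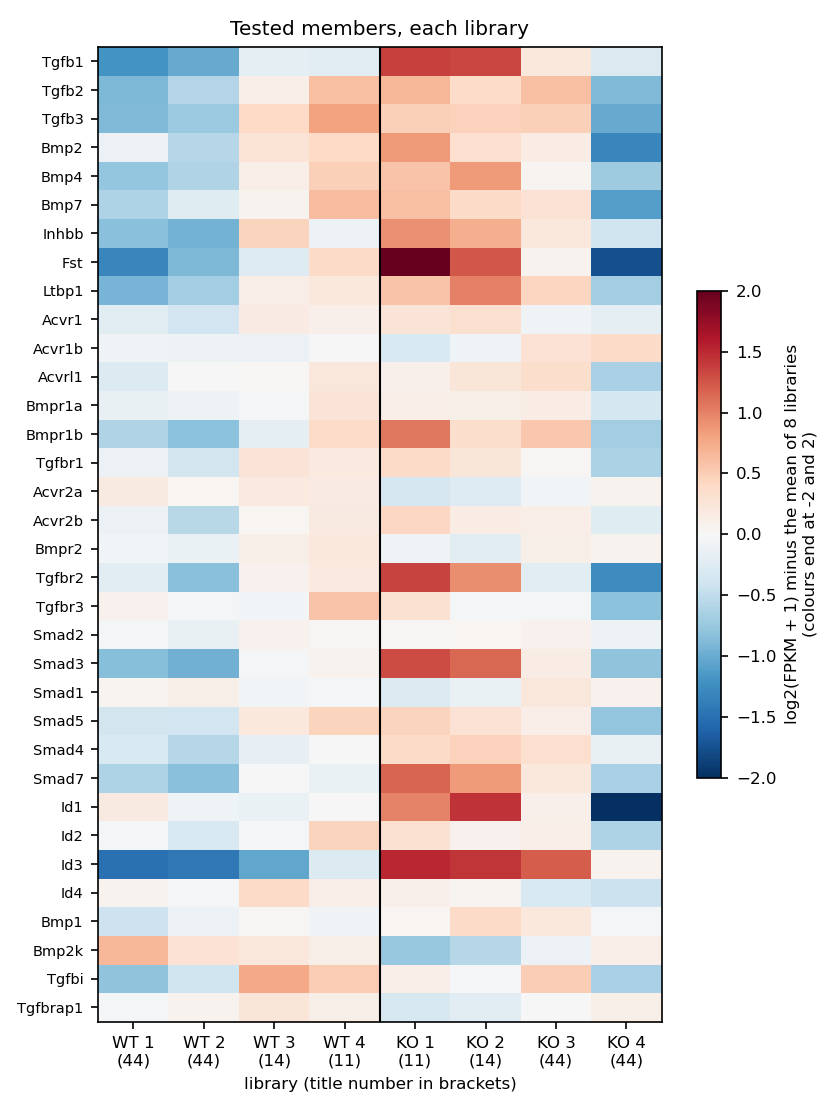
Log2(FPKM + 1) of the 34 tested genes in the 8 libraries, each gene centred on its mean over the libraries, with colours ending at -2 and 2. Knockout 4 and wild types 1 and 2 are low and knockouts 1 and 2 high for many rows, and Id3 is high in the 4 knockouts.

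A common order of the libraries ran through the members. Knockout 4 was the lowest knockout for 28 of the 34 (82.4%), against 43.3% of all tested genes, and knockout 1 was the highest for 18 (52.9%), against 17.6%. Wild type 1 or 2 was the lowest wild type for 29 members (85.3%), against 63.9% of all tested genes. The median deviation from the genotype mean in knockout 4 was -0.67 for members and -0.05 for all tested genes. The summed markers of basal keratinocytes, hair follicle keratinocytes, melanocytes and fibroblasts were lowest in the same 3 libraries. Schwann cell markers, at most 3.78 FPKM in sum, were also lowest there. The fibroblast sum did not speak for each of its markers. Dcn and Thy1 were lowest of the knockouts in knockout 4, at 6.11 and 0.566 FPKM. Col1a1, Col1a2, Col3a1, Lum and Pdgfra were instead lowest in knockout 1, at 0.667, 3.65, 1.91, 0.223 and 0.0628 FPKM. Wild type 2 was the highest wild type for Col1a1 and Col1a2, and the lowest for Dcn, Thy1 and Pdgfra. The part of these cells in the order was not tested.

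With knockout 4 left out, 9 of 35 tested members passed (25.7%), against 20.1% of all genes. Those higher were Id3, Tgfb1, Smad3, Smad4, Smad7, Fst, Ltbp1 and Bmpr1b, and Bmp2k was lower. The log2 changes were then 1.32 for Smad3 (adjusted p 0.0256), 0.66 for Smad4 (adjusted p 0.0144), 1.13 for Smad7 (adjusted p 0.0208) and 1.80 for Fst (adjusted p 0.0459), all by limma. Without knockouts 1 and 2, both titled KO1, the changes were smaller: 0.13 for Smad3, 0.36 for Smad4, 0.17 for Smad7 and 0.61 for Tgfb1, and -0.32 for Fst, none of which passed (adjusted p 0.348 to 0.896, limma). With log2 Xist as a covariate they were 0.29, 0.34, 0.24, 0.78 and 0.14 in the same order, and none passed (adjusted p 0.313 to 0.949, limma). With the title number as a block the adjusted p of Tgfb1 was 0.00114, of Bmp2k 0.0107, of Smad3 0.0233, of Smad4 0.0303, of Inhbb 0.0334 and of Smad7 0.0428. With any 1 of the other 7 libraries left out, and no block, Id3 alone passed.

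Within title numbers 11 and 14 alone, 8 of 35 tested members passed (22.9%), against 14.8% of all genes, and within 44 alone 1 of 33 (3.03%), against 11%. The first 8 were Id3, Id1, Tgfb1, Tgfbr2, Smad3, Smad7 and Fst, higher, and Bmp2k, lower. These fits have 2 libraries a genotype. When the difference between the title numbers was itself tested, 0 members and 0 of 11395 genes (0.0%) passed with limma, and 5 members had an unadjusted p below 0.05, against 15.5% of all genes. For Id3 the difference was 0.0089 (SE 0.52).

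**Figure D4:**
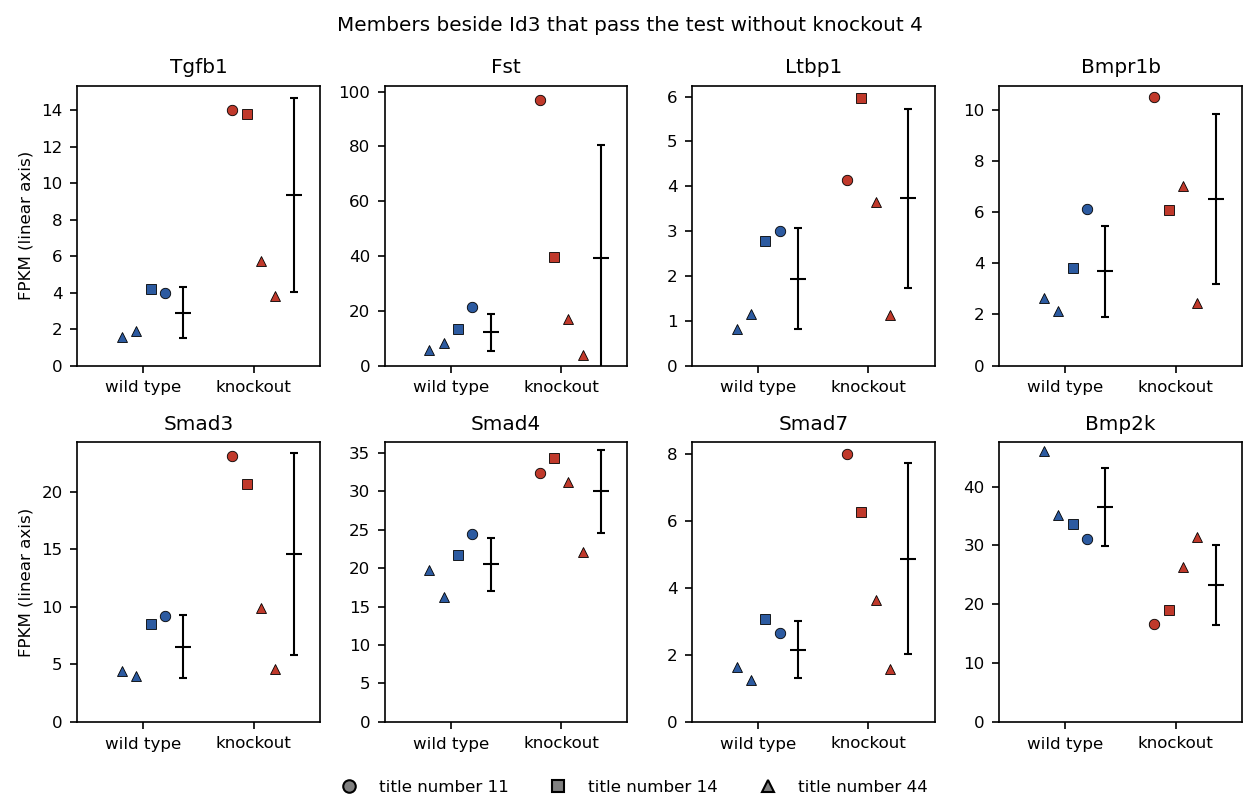
FPKM of the 8 members beside Id3 that passed the test when knockout 4 was left out, on linear axes from 0, with points shaped by title number and bars giving the mean ± SD of all 4 libraries of a genotype, cut off at 0 for Fst. Knockout 4 is the lower of the triangles among the knockouts in each panel but that of Bmp2k, where it is the upper at 31.3 FPKM.

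Beyond the members, 121 other genes of the pathway were taken from 8 lists, of which 81 were tested. Of these, 5 rose and 4 fell (11.1%), against 15.7% of all tested genes called. The lists below are short, and their counts are descriptions to be read beside that share. Of the tested other ligands 0 of 2 passed, and of the tested other antagonists 0 of 8. Among 12 tested genes for the storage and activation of latent TGF-beta, Tll1 and Mmp14 rose and Pcsk6 fell. Pcsk6, a convertase that cleaves proproteins of this family, was 21.7, 28.4, 23.6 and 28.3 FPKM in the knockouts and 62.4, 51.1, 68.2 and 50.9 FPKM in the wild types (change -1.16, SE 0.14, adjusted p 0.000593, limma). The groups were far apart. Tll1, a protease of the Bmp1 family, was 3.22, 3.198, 4.01 and 4.67 FPKM in the knockouts and 0.576, 0.696, 1.51 and 1.86 FPKM in the wild types (change 1.18, SE 0.22, adjusted p 0.00681, limma). Mmp14, a membrane protease, rose with overlapping groups (change 1.31, SE 0.36, adjusted p 0.0377), and did not pass without knockout 1, 2 or 3 or wild type 1 or 2 (adjusted p 0.0932, 0.0995, 0.0853, 0.0943 and 0.104, limma).

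Of 5 tested genes for other coreceptors and the pseudoreceptor, 1 rose and 2 fell. Bambi, a receptor-like protein without a kinase that dampens signalling, was 1.80, 2.28, 2.31 and 2.46 FPKM in the knockouts and 0.277, 0.427, 0.664 and 1.27 FPKM in the wild types (change 0.98, SE 0.20, adjusted p 0.00934, limma). Unlike most members it was highest in knockout 4. Rgma, a BMP coreceptor, was 8.88, 9.57, 13.2 and 9.65 FPKM in the knockouts and 18.5, 17.8, 17.1 and 20.1 FPKM in the wild types (change -0.79, SE 0.14, adjusted p 0.00474). Cd109, a TGF-beta coreceptor of keratinocytes, was 59.8, 57.3, 70.2 and 68.0 FPKM in the knockouts and 114, 101, 79.6 and 99.2 FPKM in the wild types (change -0.61, SE 0.13, adjusted p 0.0127). Neither pair of groups overlapped.

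Of 26 tested Smad regulators, 1 rose and 1 fell. Nedd4l, a ubiquitin ligase that acts on activated Smads, was 6.10, 7.996, 6.44 and 5.90 FPKM in the knockouts and 3.26, 2.32, 2.77 and 3.66 FPKM in the wild types (change 0.93, SE 0.16, adjusted p 0.00397, limma). Zfyve9, which presents Smads to the receptor, fell by 0.38 (SE 0.11, adjusted p 0.0463), a call that was lost without any 1 of the 8 libraries (adjusted p 0.0512 to 0.119). None of 11 tested Smad partners and genes of the non-Smad branch passed.

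Of 18 tested genes commonly induced by TGF-beta, 2 of them members, 1 rose and 0 fell, and the median change was 0.35, with 15.7% of all tested genes called in either direction. The gene that rose was Cdkn1a, the cell cycle inhibitor p21, at 150, 135, 139 and 210 FPKM in the knockouts and 90.7, 83.7, 74.5 and 105 FPKM in the wild types (change 0.82, SE 0.17, adjusted p 0.00915, limma). Cdkn2b, another cell cycle inhibitor, had a change of -1.09 (adjusted p 0.0762, limma). Of 10 tested genes commonly induced by BMP, 7 of the list being members, 2 rose, Id3 and Bambi, and 0 fell.

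**Figure D5:**
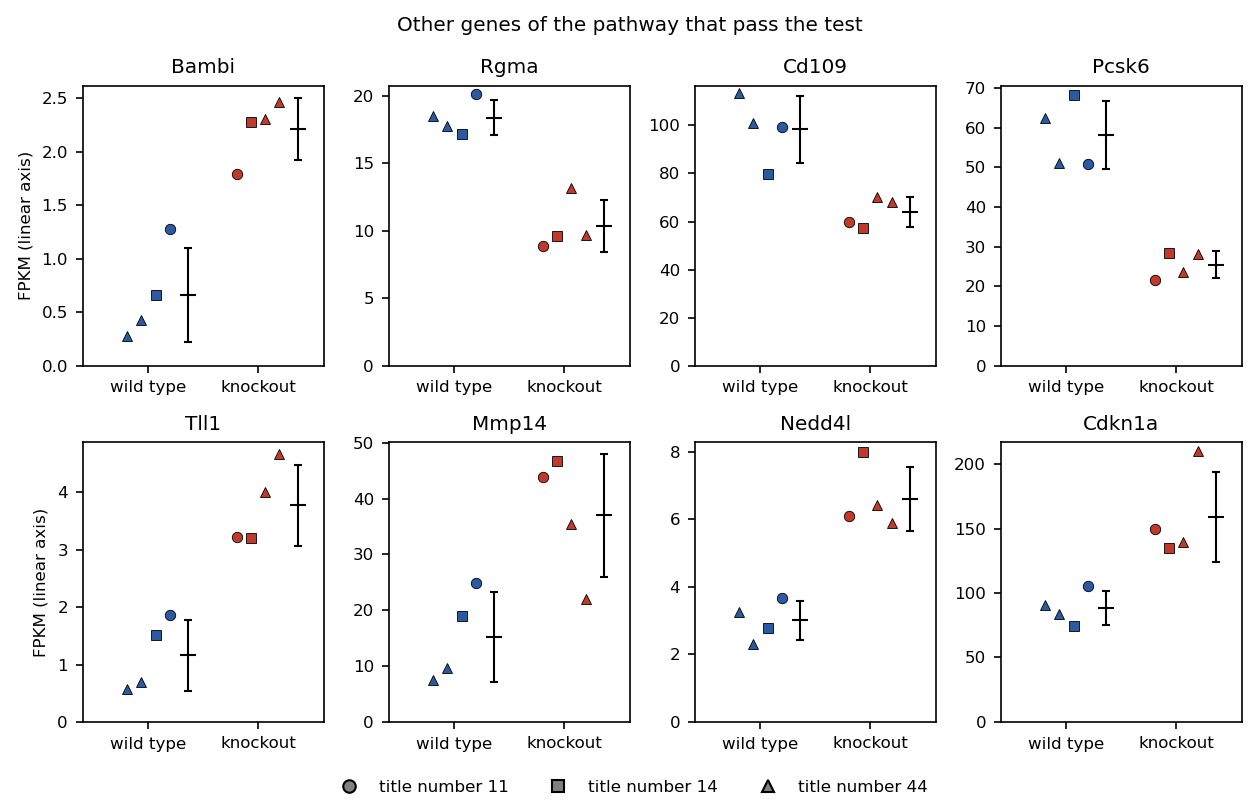
FPKM of 8 of the 9 called pathway genes outside the members, in each library on linear axes from 0, with points shaped by title number and bars giving the mean ± SD of a genotype. The genotypes do not overlap in 7 panels, and in that of Mmp14 the lowest knockout, at 22.1 FPKM, lies below the highest wild type, at 24.8 FPKM.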

How the data were processed

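RNA from newborn epidermis, freed from the dermis with trypsin-EDTA, was depleted of ribosomal RNA and sequenced as stranded paired-end libraries, per the labels' protocols. The deposited table holds FPKM values that the authors made, 1 per gene and library. Per the submitters' processing notes, mm10 served as the build. The strand setting, annotation, aligner and quantifier were not given in the sources used here. Missing values (in 5 members) were taken as 0, and 4 genes listed at 0 in some libraries and at high levels in others were left out. Whole reads were not recovered from the FPKM values, so absolute depth is unknown and no count model was used. Values were compared as log2(FPKM + 1) with limma 3.58.1 (R 4.3.3), with its trend option and Benjamini-Hochberg adjustment over all tested genes, 4 libraries against 4.

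The members, roles, pathway lists and alternatives were chosen with earlier results of these data known. Genes were named by a rule: Zfp750, every member that passed, in each role the highest and the one with the smallest p, and up to 4 passing genes a list; other members complete a role. Cdkn2b, Paqr3, Xist and Atoh8 were chosen after their values were seen. Each title number is carried by libraries of both genotypes. Deviations from the genotype mean correlated between genotypes at 0.389 for 11, 0.238 for 14 and 0.426 for 44. These deviations sum to 0 within a genotype, so the values are not separate evidence of pairing. Among single libraries, knockout 1 and wild type 3, of unlike numbers, gave 0.2025. Knockout 3 and wild type 1, both of 44, gave -0.1545. Whether the numbers mark true pairs was not tested. Promoter windows are RefSeq's on GRCm38.p6 (31 members matched), and coordinates are GENCODE's on GRCm38. Alternatives changed the pseudocount, filter, missing values, scaling, weights, covariates and libraries. Smaller fits asked for 1 FPKM in 3 of 7 libraries, or in 2 of 4 or 5. The result of 1 gene is not reported here.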

Additional observations from a re-analysis of the deposited data

Results flagged for a closer look

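In 90 groups of 4 libraries (45 genes, 2 genotypes), 3 held a library whose gap to the nearest other value was past the limit of Dixon's test at the 95% level, where chance alone flags about 1 in 20 groups. Tgfb3 was 1.25 FPKM in knockout 4 against 5.27 to 5.32 FPKM in the other knockouts. Bmpr1a was 29.6 FPKM in knockout 4 against 41.4 to 42.2 FPKM in the other knockouts. Acvr2a was 24.2 FPKM in wild type 2 against 26.6 to 27.0 FPKM in the other wild types.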

How the results depend on the processing

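Id3 passed in all 23 alternatives, and in 17 of them it was the 1 member called. The count of members called was 13 with limma's library weights (11 higher, 2 lower), 2 with quantile normalization (2 higher), 3 with a median shift (3 higher), 7 with the title number as a block (6 higher, 1 lower) and 8 with title numbers 11 and 14 alone (7 higher, 1 lower). Calls over all genes moved too. Of the 11395 tested genes, 1785 were called in the main fit and 3669 with library weights. Quantile normalization gave 1912 and a median shift 1814. The 13 members were 38.2% of those tested. Leaving out 1 library at a time gave 1 to 9 members called, 1 to 8 higher and 0 to 1 lower. The highest of each came without knockout 4. The sign turned in at least 1 alternative for 20 of the 34 tested members, and 15 were called in at least 1. Id1 was -0.016 with a pseudocount of 0.1, -0.033 with a median shift, -0.78 with Xist as a covariate and -1.24 in title number 44 alone. It was -0.31 with the number in the column headers as a block, -1.19 without knockouts 1 and 2, -0.38 with these 2 averaged as 1 sample and -0.46 to 0.86 with 1 library left out. Tgfbr2 was -0.23 with Xist, -0.22 in title number 44 and -0.55 without knockouts 1 and 2. Bmp4 was -0.067 with Xist and -0.14, and Fst -0.32, without knockouts 1 and 2. The header block and both treatments of knockouts 1 and 2 were added after seeing the data. The cause was not tested for any of these. Of the other pathway genes, Pcsk6 and Tll1 passed in all 23, and the call was lost in 3 for Bambi, 4 for Cd109, 2 for Cdkn1a, 2 for Rgma, 1 for Nedd4l, 10 for Mmp14 and 16 for Zfyve9, with highest adjusted p (limma) of 0.0975, 0.115, 0.0847, 0.0978, 0.0516, 0.248 and 0.375. FPKM hold no read counts, so for the 11 untested members, all at or below 2.17 FPKM, counting error is unknown.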
